A study of Homo sapiens with 12 samples.

Results

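The 35 genes described here are targets of the tumour suppressor p53 together with the 3 sestrins. They were chosen from textbook knowledge by gene symbol out of the 23434 genes in the table, with earlier results of these data known. p53 is a transcription factor that is stabilised after DNA damage, replicative stress or oncogene activation, and that switches on genes for cell cycle arrest, DNA repair and cell death along with MDM2, the ligase that degrades it. Sestrins are stress-induced proteins that restrain the growth kinase complex mTORC1 through the GATOR complexes. SESN1 and SESN2 are p53 targets, while SESN3 is known mainly as a target of FOXO transcription factors.

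The data are EU-seq libraries, in which RNA made during a pulse of 5-ethynyl uridine (EU) is coupled to biotin, pulled down and sequenced, so that the counts follow newly made RNA. The cells were U2OS MycER, a human osteosarcoma line with a chimera of MYC and the estrogen receptor, which OHT (4-hydroxytamoxifen) activates. There were 12 libraries, 3 in each of 4 groups. The shNT group carried a non-targeting shRNA and had no OHT. The shNT+OHT group carried the same shRNA and had 300 nM OHT for 40 h. The groups labelled shCDK12 and shCDK12+OHT carried an shRNA against CDK12, a kinase of RNA polymerase II, without and with the same OHT. All 4 groups had doxycycline at 1 µg/mL to induce the shRNA, nocodazole at 100 ng/mL for 8 h, collection of the arrested cells by shake-off, 12 h of release and 0.5 mM EU for the last 2 h. Every group was thus of infected, synchronised cells, without an uninfected one. The labels do not say whether replicates were separate cultures, so the p-values measure only the spread between these libraries.

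Total counts ran from 1251695 to 10447836, an 8.35-fold range, and the shNT+OHT libraries were the shallowest group, with a median of 3297982 against 4314380 in shNT, 5349901 in the group labelled shCDK12 and 7173020 in the one labelled shCDK12+OHT. Levels are given as CPM, counts divided by the library's effective total on the usual scale, after TMM scaling over all libraries, in replicate order, and as mean ± SD over 3 libraries where no list of libraries is given. Log2 fold changes are given ± SE with p-values adjusted over all genes tested, and a gene was called at an adjusted p under 0.05. For the interaction the value is the difference between a pair of log2 fold changes, and values in parentheses after a lost or missing call are adjusted p-values. CPM and log2 fold changes were scaled in different fits, 12 libraries for the first and the 6 of the comparison for the second, so they match closely but not to the last digit. The mouse RNA added to each sample had no rows in the table, so a change in total newly made RNA cannot be seen. In these bulk libraries fewer cells of one kind and less new RNA per cell cannot be told apart. Of 6 markers of mesenchymal and osteosarcoma lines, 5 were present in every library and COL1A2 reached at most 5 counts. Their summed level was 868 to 966 CPM in shNT, 708 to 739 in shNT+OHT, 411 to 428 in the libraries labelled shCDK12 and 499 to 524 in those labelled shCDK12+OHT. The 5 markers of other lineages, with EPCAM the highest of them at 9.55 CPM or less, summed to 7.96 to 11 CPM in the libraries labelled shCDK12, above all other libraries, where they summed to 0.70 to 5.46 in shNT, 0.58 to 3.13 in shNT+OHT and 2.9 to 3.8 in those labelled shCDK12+OHT. The part of these differences in the results below was not tested.

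CDK12 itself was measured first, as the check of the shRNA. It read 323, 289 and 300.2 CPM in the shNT libraries, 434, 356 and 400.5 in shNT+OHT, 293, 277 and 298 in those labelled shCDK12 and 215, 208 and 218 in those labelled shCDK12+OHT. The libraries labelled shCDK12 overlapped the shNT libraries, and the difference was not called (adjusted p = 0.447). With OHT, CDK12 was lower in the libraries labelled shCDK12+OHT than in shNT+OHT (log2 fold change -0.88 ± 0.11, adjusted p = 0.00011). It was also lower there than in the libraries labelled shCDK12 without OHT (log2 fold change -0.44 ± 0.074, adjusted p = 9.55e-05), and the shNT+OHT libraries were above shNT (log2 fold change 0.38 ± 0.12, adjusted p = 0.0352). The last call was lost without shNT replicate 1, 2 or 3 or shNT+OHT replicate 3 (adjusted p between 0.0863 and 0.197). The CDK12 counts thus did not bear out the label shCDK12 without OHT, and they were lowest under the label shCDK12+OHT. Whether the labels of these groups are right was not tested. Every direction drawn from either group below is one between libraries as labelled. An shRNA acts on finished RNA, so newly made RNA is a limited check of it.

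Of the 35 members, 33 passed the filter on low counts and entered the tests. TNFRSF10A, a death receptor for TRAIL, had 0 to 2 counts in a library, and SPATA18, a mediator of mitochondrial quality control, had 0 to 4 counts, so neither could be followed at this depth. With OHT in the shNT background 7 of the 33 members were called lower and 0 higher, where 17.3% of tested genes were called in either direction, beside 8.29% of all 10272 tested genes called lower and 9.05% called higher. At an unadjusted p under 0.05, 6 members were higher and 9 lower by edgeR, and DESeq2 called 3 higher and 7 lower, as did upper-quartile scaling. The additional members under both were SESN2, PLK3 and GADD45A. The count of members called was 3, 2 and 3 without shNT replicate 1, 2 or 3, and 12, 14 and 4 without shNT+OHT replicate 1, 2 or 3. Without shNT+OHT replicate 1, 4 were higher and 8 lower, and without replicate 2, 5 were higher and 9 lower. The fit of all 12 libraries also called 5 higher and 9 lower. In the libraries labelled shCDK12 against shNT, 24 of 33 members differed, 5 higher and 19 lower, where 62.0% of 11718 tested genes were called, 29.6% higher and 32.4% lower. Upper-quartile scaling gave 9 higher and 17 lower. The member median in this comparison was a log2 fold change of -0.57, beside -0.027 over all genes tested.

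The responses to OHT in the shRNA backgrounds had opposite signs in 71.1% of the 10233 genes tested in both, and in 63.6% of the members. The members shared this table-wide difference, and OHT in the libraries labelled shCDK12 gave the opposite balance to OHT in shNT. Here 22 members were higher and 2 lower, where 48.9% of 12519 tested genes were called, 27.5% higher and 21.5% lower, and the member median was 0.29 against 0.048 over all genes. The libraries labelled shCDK12+OHT set against shNT+OHT had 16 members higher and 8 lower, where 45.4% of 11668 genes were called, 23.8% higher and 21.6% lower. The members called numbered 15, 14 and 13 without shCDK12+OHT replicate 1, 2 or 3. The difference between the responses to OHT in the shRNA backgrounds, tested as an interaction over all 12 libraries, was called for 16 members, each with the more positive response in the libraries labelled shCDK12. The background for that count was 45.2% of 11699 genes called, 25.6% in that direction and 19.6% in the other. For the other direction edgeR called 0 members, with 3 at an unadjusted p under 0.05, while DESeq2 and upper-quartile scaling each called 14 one way and 3 the other, the 3 being MDM4, PLK2 and BBC3. When all libraries were thinned to the smallest total, the members called fell to 9 for OHT in the libraries labelled shCDK12 and to 13 for shCDK12+OHT against shNT+OHT. The calls of RRM2B and TIGAR for OHT in shNT were lost in that setting (0.054 and 0.118), as were those of GADD45B, MDM2 and SESN2 in the libraries labelled shCDK12 against shNT (0.472, 0.0942 and 0.232). The 9 were SESN3, TP53INP1, RRM2B, CDKN1A, AEN, PHLDA3, FDXR, GADD45A and PLK2. The 13 were SESN3, TP53INP1, SESN1, CCNG1, MDM2, TIGAR, GDF15, FBXW7, GADD45B, PLK3, BAX, BTG2 and TNFRSF10B. DESeq2 and upper-quartile scaling both lost the calls of CCNG1, GADD45B, POLH and SESN2 for OHT in the libraries labelled shCDK12 (adjusted p 0.0617 to 0.167), of CDKN1A against shNT+OHT (0.0957 and 0.0988) and of MDM2 in the libraries labelled shCDK12 against shNT (0.079 and 0.351). Removing the gene length trend lost those of PPM1D, PHLDA3, TP53I3, ZMAT3 and DRAM1 against shNT+OHT (0.0584 to 0.0779).

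**Figure D1:**
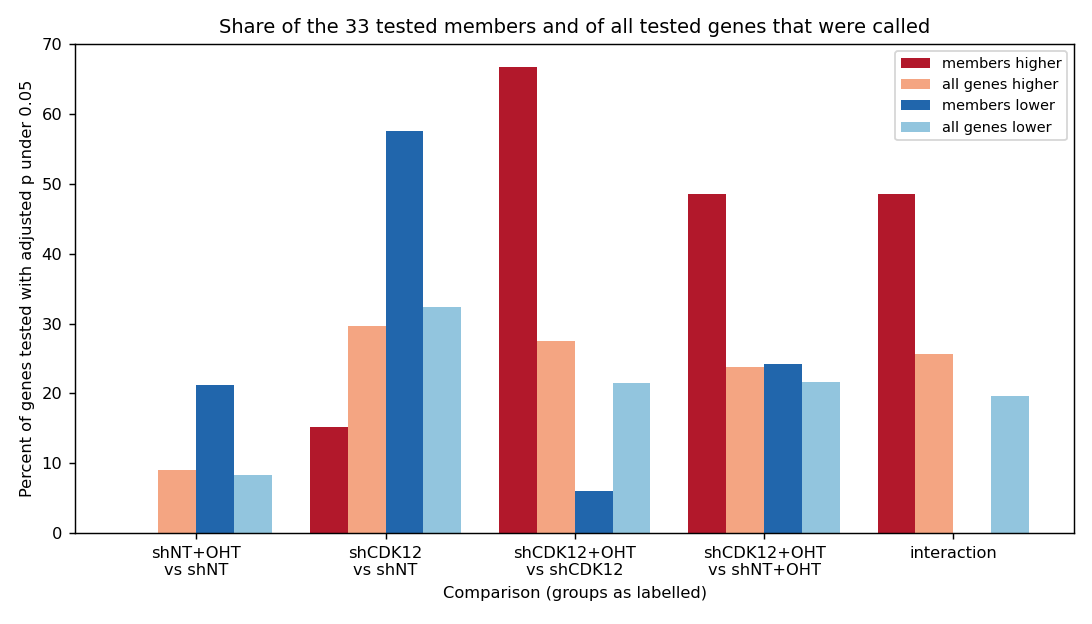
Percent of the 33 tested members (dark bars) and of all tested genes (light bars) that were called higher (red) or lower (blue) in each comparison. Members called lower in the libraries labelled shCDK12 against shNT reached 57.6% beside 32.4% of all genes, and members called higher with OHT in the libraries labelled shCDK12 reached 66.7% beside 27.5%.

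Within the members, 4 genes had all 6 libraries of shNT and shCDK12+OHT above all 6 of shNT+OHT and shCDK12, namely SESN1, SESN3, TP53INP1 and RRM2B. That is 12.1% of the 33 members, where 4.66% of 11699 tested genes had this order. The reverse order held for 0 members and for 4.83% of genes. Both counts were made after the values were seen and carry no test. The responses to OHT in the shRNA backgrounds share no library. They had opposite signs in 63.6% of the 33 members and in 71.1% of the 10233 genes tested in both, and Pearson's r was -0.67 across members and -0.62 across all genes. Genes are not independent replicates and the values share the libraries of their group, so these are descriptions. Opposite responses were no more frequent in the members than across the table.

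**Figure D2:**
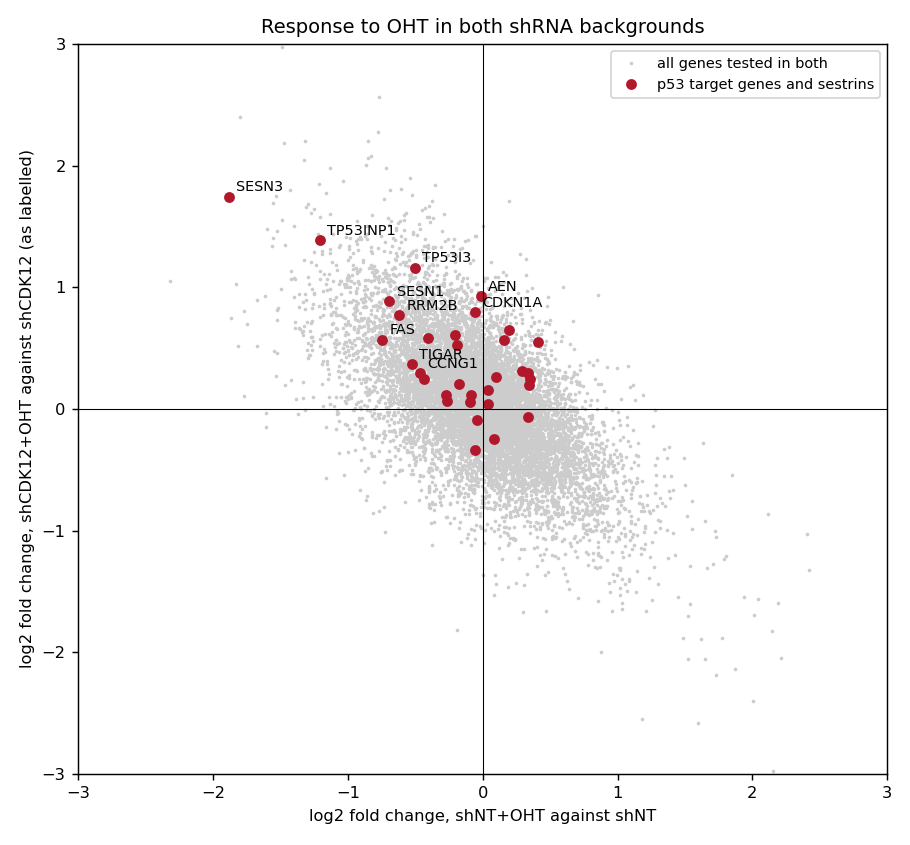
Log2 fold change with OHT in shNT (x axis) and in the libraries labelled shCDK12 (y axis) for the 33 tested members (red) and for all 10233 genes tested in both (grey). SESN3, at -1.88 and 1.74, and TP53INP1, at -1.21 and 1.39, lie farthest from the origin among the members, and 3 grey genes fall outside the axes.

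SESN3 had the largest log2 fold change of any member in 4 of the 5 comparisons, and in shCDK12+OHT against shNT+OHT it was matched in size by the fall of PLK3. It read 136, 137 and 136 CPM in the shNT libraries, 32.6, 47.0 and 34.8 in shNT+OHT, 28, 30.7 and 23.7 in those labelled shCDK12 and 95.6, 88.9 and 94.7 in those labelled shCDK12+OHT. The shNT libraries lay within 1 CPM of each other, and none of the 4 groups overlapped another. OHT in shNT brought SESN3 down (log2 fold change -1.88 ± 0.17, adjusted p = 9.71e-06), to 0.271 of its shNT level. The libraries labelled shCDK12 were lower still against shNT (log2 fold change -2.30 ± 0.12, adjusted p = 4.08e-14). In those labelled shCDK12, the response to OHT had the opposite sign and SESN3 rose 3.35-fold (log2 fold change 1.74 ± 0.11, adjusted p = 1.46e-09). It stood above shNT+OHT in the libraries labelled shCDK12+OHT (log2 fold change 1.35 ± 0.16, adjusted p = 8.14e-05), and the interaction was called (difference 3.64 ± 0.20, adjusted p = 3.92e-11). None of these calls was lost under an alternative or without any one library.

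SESN1, the sestrin gene first found as a p53 target, read 106, 106 and 74.7 CPM in the shNT libraries, 46.4, 65.2 and 68.1 in shNT+OHT, 49.8, 71.5 and 60.1 in those labelled shCDK12 and 105, 117 and 117 in those labelled shCDK12+OHT. As for SESN3, every library of shNT and of the group labelled shCDK12+OHT was above all those of the other groups, but shNT replicate 3 sat close to the highest library labelled shCDK12. OHT lowered it in shNT (log2 fold change -0.69 ± 0.19, adjusted p = 0.0208) and raised it in the libraries labelled shCDK12 (log2 fold change 0.88 ± 0.11, adjusted p = 5.13e-06). It was lower in the libraries labelled shCDK12 than in shNT (log2 fold change -0.66 ± 0.14, adjusted p = 0.000179) and higher in those labelled shCDK12+OHT than in shNT+OHT (log2 fold change 0.95 ± 0.16, adjusted p = 0.00075). The interaction was called as well (difference 1.59 ± 0.23, adjusted p = 1.67e-05). The fall in shNT was lost without shNT replicate 1 or 2 (adjusted p 0.11 and 0.117) and after a gene length trend was removed (0.078), and the rise in the libraries labelled shCDK12 was lost at equal depth (0.0678). SESN1 shares its position with ARMC2, another counted gene, meaning that their spans, introns included, have bases in common. Reads from bases common to such a pair cannot be told apart if strand was not used. Whether exons overlap was not tested, and the same holds for the other pairs named below.

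SESN2, which senses leucine for mTORC1 and is also induced by the ATF4 stress pathway, moved differently. It read 364, 378 and 349.8 CPM in the shNT libraries, 516, 397 and 476 in shNT+OHT, 322, 278 and 311 in those labelled shCDK12 and 357, 377 and 343 in those labelled shCDK12+OHT. The shNT+OHT libraries were the highest and did not overlap any other group, yet the rise over shNT was not called (adjusted p = 0.0533). DESeq2 called that rise (0.0266), as did upper-quartile scaling (0.038). SESN2 was lower in the libraries labelled shCDK12 than in shNT (log2 fold change -0.27 ± 0.083, adjusted p = 0.00736), rose there with OHT (log2 fold change 0.25 ± 0.078, adjusted p = 0.0143) and was below shNT+OHT in those labelled shCDK12+OHT (log2 fold change -0.35 ± 0.11, adjusted p = 0.0249). The first of these calls was lost without shNT replicate 2 (0.0652), the next without shCDK12+OHT replicate 2 (0.0825), and the last without shNT+OHT replicate 3 or any one shCDK12+OHT library (0.0636 to 0.106). At equal depth none of the 3 was called (0.0506 to 0.345). Its interaction was not called (0.559).

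**Figure D3:**
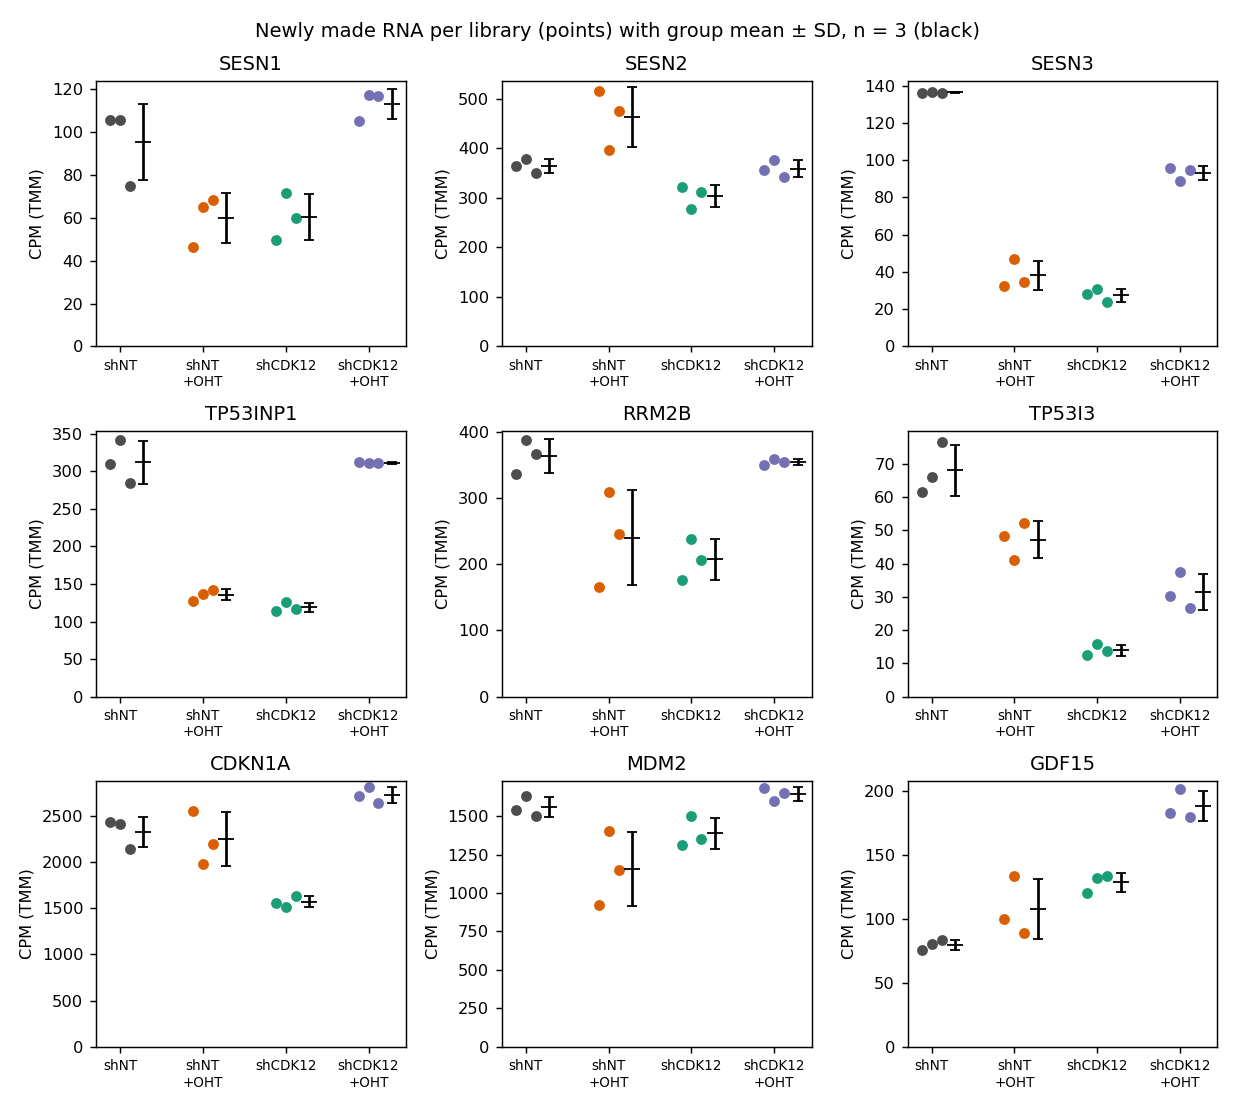
CPM of newly made RNA in each library for 9 members, with the mean ± SD of 3 libraries in black beside each group (y axes start at 0). SESN3, SESN1, TP53INP1 and RRM2B are high in shNT and in the libraries labelled shCDK12+OHT and low in the other groups, while SESN2 is highest in shNT+OHT and GDF15 in the libraries labelled shCDK12+OHT.

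RefSeq promoters (GRCh38.p14, 250 bases before to 50 after the annotated start) were at hand for 29 of the 35 members. The sequences for SESN3 and SESN1, the sestrins with the order just described, are shown for their lack of 2 motifs. Neither window holds CACGTG, the E-box that MYC prefers, which reads the same on both strands, nor the p53 half-site. That says only that these letters are not in these windows. Each line gives the 250 bases before the start, 5′ to 3′ on the gene's strand; SESN3 is at chr11:95232476-95232725, minus strand, and SESN1 at chr6:109094847-109095096, minus strand.
SESN3: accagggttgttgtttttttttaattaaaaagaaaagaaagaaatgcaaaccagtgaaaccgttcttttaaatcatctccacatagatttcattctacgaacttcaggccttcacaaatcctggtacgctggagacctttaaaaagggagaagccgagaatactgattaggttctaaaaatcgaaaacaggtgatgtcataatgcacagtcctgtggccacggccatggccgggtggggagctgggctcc
SESN1: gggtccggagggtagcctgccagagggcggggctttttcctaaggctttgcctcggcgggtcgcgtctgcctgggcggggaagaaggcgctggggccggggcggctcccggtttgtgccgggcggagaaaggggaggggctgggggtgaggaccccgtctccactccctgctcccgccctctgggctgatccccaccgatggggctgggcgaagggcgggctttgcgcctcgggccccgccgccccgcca

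Of the 4 genes that restrain p53, MDM2, the ubiquitin ligase for p53 and its best known target, read 1542, 1630.3 and 1502 CPM in the shNT libraries, 924, 1403 and 1146 in shNT+OHT, 1310.0, 1503 and 1348 in those labelled shCDK12 and 1684, 1596 and 1650.5 in those labelled shCDK12+OHT. All 3 shNT+OHT libraries were below the shNT libraries and also varied most, with replicate 1 the lowest. MDM2 fell with OHT in shNT (log2 fold change -0.44 ± 0.13, adjusted p = 0.0282) and rose with OHT in the libraries labelled shCDK12 (log2 fold change 0.24 ± 0.073, adjusted p = 0.0101). It was higher in those labelled shCDK12+OHT than in shNT+OHT (log2 fold change 0.53 ± 0.13, adjusted p = 0.00766), and the interaction was called (difference 0.68 ± 0.16, adjusted p = 0.00153). Against shNT the libraries labelled shCDK12 were slightly lower (log2 fold change -0.17 ± 0.072, adjusted p = 0.0429), with overlap between the groups.

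CCNG1, cyclin G1, which recruits a phosphatase to MDM2, was at 178 ± 2.75, 133 ± 61.9, 207 ± 47.7 and 255 ± 1.54 CPM in shNT, shNT+OHT and the groups labelled shCDK12 and shCDK12+OHT, the order of groups used for all means below. The shNT+OHT libraries ranged most widely, and only replicate 2 was above shNT. CCNG1 was higher in the libraries labelled shCDK12+OHT than in shNT+OHT (log2 fold change 1.00 ± 0.24, adjusted p = 0.00574) and than in those labelled shCDK12 (log2 fold change 0.29 ± 0.12, adjusted p = 0.0454), with a called interaction (difference 0.78 ± 0.28, adjusted p = 0.0287). MDM4, the MDM2 partner that blocks p53 transactivation, fell with OHT in the libraries labelled shCDK12 (log2 fold change -0.25 ± 0.077, adjusted p = 0.0137) and was at 314 ± 9.10, 335 ± 38.6, 353 ± 29.9 and 299 ± 5.56 CPM. PPM1D, the WIP1 phosphatase that switches p53 signalling off, was higher in the libraries labelled shCDK12+OHT than in shNT+OHT (log2 fold change 0.37 ± 0.11, adjusted p = 0.0212), at 547 ± 23.0, 517 ± 70.6, 606 ± 48.5 and 659 ± 35.9 CPM. Several of these calls rested on single libraries. The MDM2 fall in shNT was lost when any one shNT library or shNT+OHT replicate 3 was left out (0.0856 to 0.116), its difference between the libraries labelled shCDK12 and shNT without shNT replicate 1 or 2 or shCDK12 replicate 1 or 3 (0.124 to 0.266), and its rise without shCDK12 replicate 3 or shCDK12+OHT replicate 1 (0.0503 and 0.0523). The CCNG1 rise was lost when any one shCDK12+OHT library or shCDK12 replicate 1 or 3 was left out (0.0686 to 0.185) and its interaction in 7 of 12 such fits (shNT replicates 1 and 2, shNT+OHT replicate 3, shCDK12 replicate 1 and each shCDK12+OHT library, 0.0517 to 0.085). DESeq2 and thinning to equal depth also lost the CCNG1 interaction (0.151 and 0.0578). The MDM4 fall was lost without shCDK12+OHT replicate 3 (0.0569) and the PPM1D rise when any one shCDK12+OHT library was left out (0.0522 to 0.101). For the libraries labelled shCDK12 against shNT, MDM4, PPM1D and CCNG1 were not called, but some other settings called them higher. DESeq2 called MDM4 and PPM1D (0.0323 and 0.0392). Upper-quartile scaling called MDM4, PPM1D and CCNG1 (0.00993, 0.013 and 0.0191), as did removing the gene length trend (0.0208, 0.0107 and 0.0336).

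Among genes of cell cycle arrest, CDKN1A, which encodes the cyclin-dependent kinase inhibitor p21, read 2429.5, 2413 and 2142 CPM in the shNT libraries, 2557, 1979.8 and 2199 in shNT+OHT, 1555, 1517 and 1632 in those labelled shCDK12 and 2720.1, 2809.5 and 2638 in those labelled shCDK12+OHT. The libraries labelled shCDK12 were the lowest and those labelled shCDK12+OHT the highest, and neither overlapped any other group, while shNT and shNT+OHT overlapped. CDKN1A was lower in the libraries labelled shCDK12 than in shNT (log2 fold change -0.57 ± 0.07, adjusted p = 1.20e-07) and rose there with OHT (log2 fold change 0.80 ± 0.07, adjusted p = 6.51e-08). OHT in shNT gave no call (adjusted p = 0.756), and the interaction was called (difference 0.85 ± 0.13, adjusted p = 2.67e-05). The smaller rise over shNT+OHT in the libraries labelled shCDK12+OHT (log2 fold change 0.30 ± 0.10, adjusted p = 0.0346) was lost in every fit that left out a library other than shNT+OHT replicate 1 (0.0789 to 0.158).

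PLK3, a stress-responsive polo-like kinase, read 246, 262 and 261 CPM in the shNT libraries, 363, 292 and 313 in shNT+OHT, 108, 104 and 96.2 in those labelled shCDK12 and 123, 128 and 125 in those labelled shCDK12+OHT. The groups labelled shCDK12 and shCDK12+OHT were far below both shNT groups. It was lower in the libraries labelled shCDK12 than in shNT (log2 fold change -1.32 ± 0.091, adjusted p = 4.81e-12) and, with OHT, lower in those labelled shCDK12+OHT than in shNT+OHT (log2 fold change -1.35 ± 0.11, adjusted p = 1.47e-05), without a called interaction (0.797). Its small rise with OHT in the libraries labelled shCDK12 (log2 fold change 0.29 ± 0.084, adjusted p = 0.00791) was lost without shCDK12 replicate 3 (0.0509) and had the other sign at equal depth. PLK3 shares its position with DYNLT4.

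BTG2, an antiproliferative factor, was at 1003 ± 6.44, 1120.5 ± 156, 549.8 ± 36.5 and 816 ± 47.6 CPM. It was lower in the libraries labelled shCDK12 than in shNT (log2 fold change -0.87 ± 0.076, adjusted p = 3.62e-10), rose there with OHT (log2 fold change 0.57 ± 0.076, adjusted p = 8.61e-06), stayed below shNT+OHT in those labelled shCDK12+OHT (log2 fold change -0.44 ± 0.11, adjusted p = 0.00787) and had a called interaction (difference 0.41 ± 0.14, adjusted p = 0.021). PLK2, another polo-like kinase, went the other way, at 759 ± 22.5, 732 ± 88.0, 1152 ± 46.0 and 913 ± 26.9 CPM. It was higher in the libraries labelled shCDK12 than in shNT (log2 fold change 0.60 ± 0.073, adjusted p = 1.25e-07), fell there with OHT (log2 fold change -0.33 ± 0.07, adjusted p = 0.000662) and was higher in those labelled shCDK12+OHT than in shNT+OHT (log2 fold change 0.34 ± 0.10, adjusted p = 0.02). FBXW7, the ubiquitin ligase receptor that degrades cyclin E and MYC, was higher in both groups labelled with the CDK12 shRNA, against shNT (log2 fold change 0.85 ± 0.10, adjusted p = 8.15e-08) and against shNT+OHT (log2 fold change 0.83 ± 0.15, adjusted p = 0.00122), at 101 ± 15.3, 101 ± 22.2, 185 ± 5.94 and 173 ± 5.60 CPM. OHT gave no call for FBXW7 in either background by the same test, but with the gene length trend removed it was called lower in the libraries labelled shCDK12 (-0.23 ± 0.076, adjusted p = 0.0164).

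GADD45A and GADD45B are stress sensors that slow the cell cycle. GADD45A, at 359 ± 13.1, 441 ± 29.7, 326 ± 30.0 and 405 ± 33.5 CPM, rose with OHT in the libraries labelled shCDK12 (log2 fold change 0.31 ± 0.084, adjusted p = 0.00522). OHT in shNT gave no call for GADD45A in the edgeR fit of 6 libraries. DESeq2 (0.32 ± 0.12, adjusted p = 0.0342), upper-quartile scaling (0.33 ± 0.11, adjusted p = 0.0464) and the fit of all 12 libraries (0.30 ± 0.098, adjusted p = 0.0296) called it higher there. The interaction of GADD45A was not called. GADD45B, at 209.6 ± 7.51, 224 ± 27.3, 254 ± 19.5 and 304 ± 33.7 CPM, was higher in the libraries labelled shCDK12 than in shNT (log2 fold change 0.28 ± 0.087, adjusted p = 0.00819), rose there with OHT (log2 fold change 0.26 ± 0.088, adjusted p = 0.0212) and was above shNT+OHT in those labelled shCDK12+OHT (log2 fold change 0.45 ± 0.12, adjusted p = 0.012). The GADD45B calls were lost without shNT replicate 1 or shCDK12 replicate 3 (0.0537 and 0.0593) in the first, shCDK12 replicate 1 or shCDK12+OHT replicate 2 (0.0571 and 0.185) in the next and shCDK12+OHT replicate 2 (0.0802) in the last. The BTG2 interaction was lost without shCDK12 replicate 1 or 2 or shCDK12+OHT replicate 2 (0.0529 to 0.0595), with upper-quartile scaling (value 0.29, adjusted p = 0.0931) and at equal depth (value 0.14, adjusted p = 0.58), and the PLK2 rise over shNT+OHT when any one shCDK12+OHT library was left out (0.06 to 0.0795).

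FAS, the receptor for FAS ligand that triggers the extrinsic death pathway, read 74.5, 89.6 and 83.2 CPM in the shNT libraries, 41.0, 53.6 and 54.2 in shNT+OHT, 38.9, 39.5 and 36.1 in those labelled shCDK12 and 55.7, 59.9 and 54.1 in those labelled shCDK12+OHT. The shNT libraries were the highest, and shNT+OHT overlapped slightly with the libraries labelled shCDK12+OHT. FAS fell with OHT in shNT (log2 fold change -0.74 ± 0.17, adjusted p = 0.0097) and rose with OHT in the libraries labelled shCDK12 (log2 fold change 0.57 ± 0.10, adjusted p = 0.000222), where it had been lower than in shNT (log2 fold change -1.11 ± 0.13, adjusted p = 5.73e-08). The interaction was called (difference 1.31 ± 0.19, adjusted p = 1.72e-05). The fall in shNT was lost without shNT replicate 2 or 3 (0.0749 and 0.0504), and the rise was lost at equal depth (0.354). FAS shares its position with ACTA2 and FAS-AS1. TNFRSF10B, the TRAIL receptor DR5, was at 444 ± 12.3, 458 ± 10.4, 289 ± 11.9 and 322 ± 5.34 CPM. Its level was lower in the libraries labelled shCDK12 than in shNT (log2 fold change -0.62 ± 0.08, adjusted p = 2.94e-07) and in those labelled shCDK12+OHT than in shNT+OHT (log2 fold change -0.49 ± 0.092, adjusted p = 0.00151). It shares its position with RHOBTB2 and TNFRSF10B-AS1.

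TP53INP1, a stress protein that acts in p53-dependent death and in autophagy, was high and low in the same groups as SESN3. It read 309, 342 and 285 CPM in the shNT libraries, 128, 137 and 143 in shNT+OHT, 113, 126 and 117 in those labelled shCDK12 and 312, 311 and 311 in those labelled shCDK12+OHT. The shNT libraries and those labelled shCDK12+OHT overlapped, and every library of both lay above every library of the other groups. TP53INP1 fell with OHT in shNT (log2 fold change -1.21 ± 0.12, adjusted p = 2.01e-05) and was lower in the libraries labelled shCDK12 than in shNT (log2 fold change -1.40 ± 0.09, adjusted p = 1.20e-12). It rose with OHT in the libraries labelled shCDK12 (log2 fold change 1.39 ± 0.077, adjusted p = 2.98e-10), was higher in those labelled shCDK12+OHT than in shNT+OHT (log2 fold change 1.22 ± 0.10, adjusted p = 1.47e-05) and had a called interaction (difference 2.59 ± 0.14, adjusted p = 3.27e-11). None of these 5 calls was lost under any alternative or without any library. TP53INP1 shares its position with NDUFAF6.

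TP53I3, an oxidoreductase also called PIG3 that is tied to p53-dependent oxidative stress, read 61.6, 66.0 and 76.7 CPM in the shNT libraries, 48.2, 41.2 and 52.2 in shNT+OHT, 12.5, 15.7 and 13.7 in those labelled shCDK12 and 30.3, 37.5 and 26.7 in those labelled shCDK12+OHT. The 4 groups did not overlap, with the libraries labelled shCDK12 the lowest. TP53I3 was lower in those libraries than in shNT (log2 fold change -2.25 ± 0.16, adjusted p = 1.01e-11), to 0.210 of the shNT level, and rose there with OHT (log2 fold change 1.16 ± 0.16, adjusted p = 1.17e-05). It remained below shNT+OHT in the libraries labelled shCDK12+OHT (log2 fold change -0.58 ± 0.18, adjusted p = 0.0206), while OHT in shNT gave no call in the fit of 6 libraries (0.0638) but a called fall in the fit of all 12 (-0.49 ± 0.16, adjusted p = 0.0306) and with the length trend removed (-0.63 ± 0.17, adjusted p = 0.0261). The interaction was called (difference 1.66 ± 0.23, adjusted p = 1.16e-05), but not at equal depth (0.207), where TP53I3 also fell below the filter for OHT in the libraries labelled shCDK12. The difference from shNT+OHT was lost without shNT+OHT replicate 3 or shCDK12+OHT replicate 1 or 3 (0.0602 to 0.101). TP53I3 shares its position with FAM228B.

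AEN, an exonuclease of apoptotic DNA breakdown, was at 1156 ± 65.1, 1145 ± 158, 642 ± 49.1 and 1222 ± 49.5 CPM. The gene was lower in the libraries labelled shCDK12 than in shNT (log2 fold change -0.85 ± 0.077, adjusted p = 7.99e-10), rose there with OHT (log2 fold change 0.93 ± 0.076, adjusted p = 3.02e-08) and had a called interaction (difference 0.94 ± 0.14, adjusted p = 1.98e-05). PHLDA3, which inhibits the survival kinase AKT, was at 281 ± 13.7, 321 ± 71.9, 144 ± 11 and 225 ± 26.5 CPM. PHLDA3 was lower in the libraries labelled shCDK12 than in shNT (log2 fold change -0.97 ± 0.088, adjusted p = 8.02e-10), rose there with OHT (log2 fold change 0.65 ± 0.093, adjusted p = 1.92e-05) and was below shNT+OHT in those labelled shCDK12+OHT (log2 fold change -0.50 ± 0.16, adjusted p = 0.0216), a call lost without shCDK12+OHT replicate 3 (0.108). The PHLDA3 interaction was not called, but some other settings called it. These were no filter on low counts (difference 0.44, adjusted p = 0.0261) and the replicate number as a block (0.45, adjusted p = 0.0397). Equal depth (0.83, adjusted p = 0.0152) and removal of the length trend (0.60, adjusted p = 0.00524) called it too. BAX, which permeabilises mitochondria, was at 107 ± 9.72, 136 ± 11.8, 58.7 ± 6.09 and 67.2 ± 5.28 CPM. BAX was lower in both groups labelled with the CDK12 shRNA, against shNT (log2 fold change -0.87 ± 0.12, adjusted p = 5.50e-07) and against shNT+OHT (log2 fold change -1.0 ± 0.13, adjusted p = 0.000151), and OHT gave no call in either background, except for a rise in shNT in the fit of all 12 libraries (0.35 ± 0.12, adjusted p = 0.0428).

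Other members of the apoptosis group rose or gave no call. TRIAP1, an inhibitor of apoptosome formation, was at 208 ± 8.30, 216 ± 43.4, 292 ± 33.8 and 301 ± 28.8 CPM, higher in the libraries labelled shCDK12 than in shNT (log2 fold change 0.48 ± 0.091, adjusted p = 6.50e-05) and in those labelled shCDK12+OHT than in shNT+OHT (log2 fold change 0.51 ± 0.15, adjusted p = 0.0168). ZMAT3, an RNA-binding regulator of splicing, was at 432 ± 12.9, 363 ± 69.0, 447 ± 43.0 and 468 ± 13.9 CPM and was called only against shNT+OHT, where the libraries labelled shCDK12+OHT were higher (log2 fold change 0.39 ± 0.13, adjusted p = 0.0291). The TRIAP1 call against shNT+OHT was lost without shCDK12+OHT replicate 2 or 3 (0.0675 and 0.0763), and that of ZMAT3 without shNT+OHT replicate 3 or any one shCDK12+OHT library (0.0757 to 0.0985). The genes of the proapoptotic BH3 proteins gave no call by edgeR with TMM scaling. PMAIP1, known as NOXA, was at 292 ± 16.1, 276 ± 72.5, 270.1 ± 75.6 and 283 ± 31.0 CPM. BBC3, known as PUMA, was at 114 ± 14.0, 143 ± 11.1, 129 ± 16.6 and 123 ± 12.9 CPM, and other settings called it. Its interaction was called by DESeq2 (-0.47 ± 0.19, adjusted p = 0.0294) and with upper-quartile scaling (-0.53 ± 0.18, adjusted p = 0.0196), and it was called higher in the libraries labelled shCDK12 than in shNT with upper-quartile scaling (0.28 ± 0.11, adjusted p = 0.0311) and with the length trend removed (0.28 ± 0.11, adjusted p = 0.0332).

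The promoters of BAX, AEN and FDXR are shown because they hold the motifs that were searched. CACGTG was present in 4 of the 29 member promoters (13.8%), those of AEN, GADD45B, BBC3 and BAX, and in 7.26% of all 35116 promoters of the same length. The p53 half-site was present in 3 (10.3%), those of PLK2, AEN and FDXR, and in 6.63% of all, and it reads as the same pattern on both strands. A pair of half-sites with at most 13 bases between them was found in 0 member promoters and in 0.0285% of all. BAX holds CACGTG 4 times before its start, beginning at -138, -93, -45 and -14. AEN holds a half-site from -34 and FDXR one from -11, and these letters are identical in both; the CACGTG of AEN lies after the start and is not printed. These matches are descriptions of the letters. Capitals mark the motifs; BAX is at chr19:48954625-48954874, plus strand, AEN at chr15:88621090-88621339, plus strand and FDXR at chr17:74872995-74873244, minus strand.
BAX: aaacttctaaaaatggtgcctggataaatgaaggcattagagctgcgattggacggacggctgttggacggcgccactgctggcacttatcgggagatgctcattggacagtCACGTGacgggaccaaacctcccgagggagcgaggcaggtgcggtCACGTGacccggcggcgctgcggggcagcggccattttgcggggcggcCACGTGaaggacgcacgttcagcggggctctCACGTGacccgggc
AEN: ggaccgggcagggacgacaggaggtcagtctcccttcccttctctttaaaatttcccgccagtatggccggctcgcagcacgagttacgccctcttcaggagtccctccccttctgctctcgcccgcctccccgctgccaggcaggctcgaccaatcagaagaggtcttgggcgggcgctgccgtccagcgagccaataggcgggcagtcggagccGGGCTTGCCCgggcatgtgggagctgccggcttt
FDXR: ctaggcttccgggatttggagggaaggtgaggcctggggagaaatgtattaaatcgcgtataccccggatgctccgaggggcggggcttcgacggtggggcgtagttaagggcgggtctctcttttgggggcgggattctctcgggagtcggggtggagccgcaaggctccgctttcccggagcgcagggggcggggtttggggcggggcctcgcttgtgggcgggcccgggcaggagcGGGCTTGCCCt

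All 4 members for DNA repair and nucleotide supply were lower in the libraries labelled shCDK12 than in shNT and higher with OHT in the libraries labelled shCDK12, where 32.4% and 27.5% of all tested genes were called in these directions. XPC, the damage sensor of nucleotide excision repair, was at 97.1 ± 7.13, 72.7 ± 7.95, 39.8 ± 5.25 and 59.1 ± 2.20 CPM. It was lower against shNT (log2 fold change -1.30 ± 0.13, adjusted p = 5.15e-09), rose with OHT (log2 fold change 0.59 ± 0.11, adjusted p = 0.000364) and had a called interaction (difference 0.98 ± 0.19, adjusted p = 0.000269). DDB2, which recognises ultraviolet lesions in chromatin, was at 155 ± 7.28, 136 ± 11, 87.6 ± 9.03 and 126 ± 10.3 CPM. It was lower against shNT (log2 fold change -0.83 ± 0.10, adjusted p = 1.41e-07), rose with OHT (log2 fold change 0.53 ± 0.10, adjusted p = 0.000212) and had a called interaction (difference 0.71 ± 0.16, adjusted p = 0.00117). At equal depth the rises of XPC and DDB2 with OHT were not called (0.265 and 0.729), nor was the DDB2 interaction (0.381).

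RRM2B, the p53-inducible subunit of ribonucleotide reductase, was at 364 ± 25.9, 239.9 ± 72.1, 207 ± 31.4 and 354 ± 4.19 CPM. It fell with OHT in shNT (log2 fold change -0.62 ± 0.17, adjusted p = 0.0241) and was lower in the libraries labelled shCDK12 than in shNT (log2 fold change -0.81 ± 0.10, adjusted p = 1.13e-07). It rose with OHT in the libraries labelled shCDK12 (log2 fold change 0.77 ± 0.092, adjusted p = 2.58e-06), was above shNT+OHT in those labelled shCDK12+OHT (log2 fold change 0.60 ± 0.18, adjusted p = 0.0178) and had a called interaction (difference 1.4 ± 0.22, adjusted p = 3.09e-05). POLH, the polymerase that copies past ultraviolet lesions, was at 227 ± 17.1, 199.9 ± 19.6, 139 ± 5.79 and 159.8 ± 3.90 CPM. It was lower in the libraries labelled shCDK12 than in shNT (log2 fold change -0.71 ± 0.091, adjusted p = 2.42e-07). Its other calls were small, at log2 fold change 0.20 ± 0.079, adjusted p = 0.0395 for OHT in the libraries labelled shCDK12, log2 fold change -0.31 ± 0.11, adjusted p = 0.0425 for shCDK12+OHT against shNT+OHT and difference 0.38 ± 0.14, adjusted p = 0.0354 for the interaction. These 3 POLH calls were each lost when any one shCDK12+OHT library was left out, and also without shCDK12 replicate 2 or 3 for the first, without shNT+OHT replicate 3 for the next, and without shNT replicate 2 or 3, shNT+OHT replicate 2 or shCDK12 replicate 2 or 3 for the last (0.0587 to 0.163). They were also lost in 7 of 8, 3 of 8 and 5 of 7 other settings, up to an adjusted p of 0.167, 0.198 and 0.261. The RRM2B fall in shNT was lost when any one shNT library or shNT+OHT replicate 3 was left out (0.0556 to 0.0991), and its difference from shNT+OHT without shNT+OHT replicate 3 or any one shCDK12+OHT library (0.0501 to 0.0623). POLH shares its position with GTPBP2.

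GDF15, a secreted stress cytokine, read 75.4, 80.2 and 83.2 CPM in the shNT libraries, 99.6, 134 and 88.7 in shNT+OHT, 120.0, 132 and 134 in those labelled shCDK12 and 183, 201 and 179 in those labelled shCDK12+OHT. The levels were lowest in shNT, higher in the libraries labelled shCDK12 and highest in those labelled shCDK12+OHT, with no overlap among these 3 groups, while shNT+OHT replicate 2 lay close to the top of the range labelled shCDK12. GDF15 was higher in the libraries labelled shCDK12 than in shNT (log2 fold change 0.70 ± 0.10, adjusted p = 2.90e-06) and rose there with OHT (log2 fold change 0.55 ± 0.083, adjusted p = 3.31e-05). With OHT it was above shNT+OHT (log2 fold change 0.85 ± 0.15, adjusted p = 0.00111), and the interaction was not called (0.532). At equal depth its rise with OHT in the libraries labelled shCDK12 was not called (0.152).

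TIGAR, which lowers glycolytic flux and protects against oxidative stress, was at 341 ± 4.56, 240.3 ± 60.3, 313 ± 25.4 and 405 ± 6.60 CPM. It fell with OHT in shNT (log2 fold change -0.53 ± 0.15, adjusted p = 0.0286), rose with OHT in the libraries labelled shCDK12 (log2 fold change 0.37 ± 0.077, adjusted p = 0.000673), was above shNT+OHT in those labelled shCDK12+OHT (log2 fold change 0.79 ± 0.15, adjusted p = 0.00191) and had a called interaction (difference 0.90 ± 0.18, adjusted p = 0.000373). FDXR, the mitochondrial ferredoxin reductase, was at 79.8 ± 5.22, 67.4 ± 20.6, 52.3 ± 2.80 and 79.5 ± 4.44 CPM. FDXR was lower in the libraries labelled shCDK12 than in shNT (log2 fold change -0.61 ± 0.12, adjusted p = 0.00013), rose there with OHT (log2 fold change 0.61 ± 0.10, adjusted p = 5.61e-05) and had a called interaction (difference 0.79 ± 0.22, adjusted p = 0.0062). DRAM1, a lysosomal protein that promotes autophagy, was at 60.4 ± 5.03, 49.8 ± 12.6, 66.2 ± 2.79 and 71.6 ± 3.79 CPM, and was called only as higher in the libraries labelled shCDK12+OHT than in shNT+OHT (log2 fold change 0.54 ± 0.18, adjusted p = 0.0275). The TIGAR fall was lost when any one shNT library or shNT+OHT replicate 3 was left out (0.0892 to 0.113), and the DRAM1 call in every fit that left out a library other than shNT+OHT replicate 3 (0.0528 to 0.101).

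**Figure D4:**
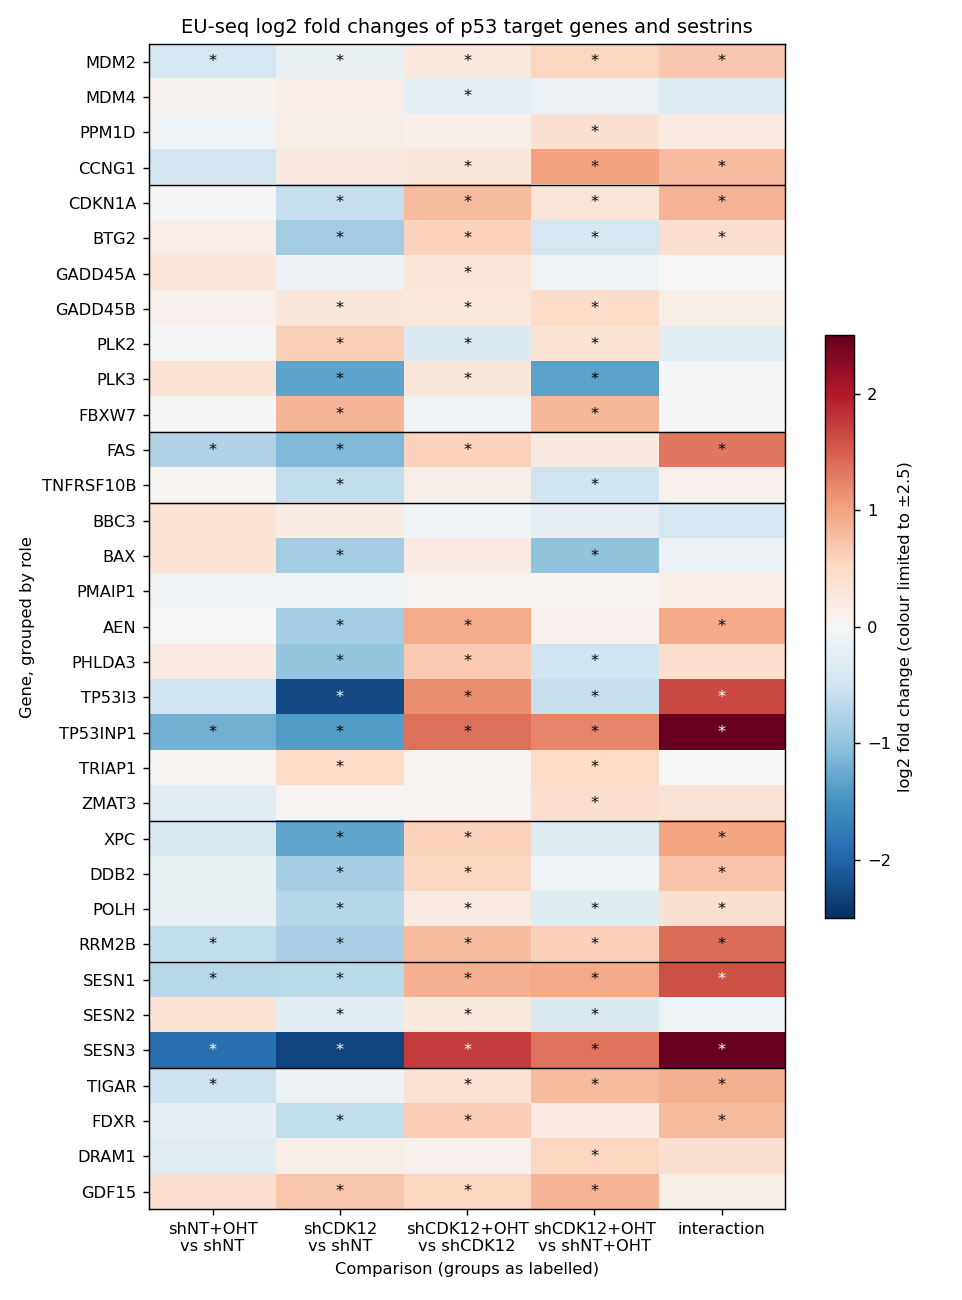
Log2 fold changes (colour, limited to ±2.5) of the 33 tested members in the 4 pairwise comparisons and the interaction, in rows grouped by role from regulators of p53 at the top to metabolism and secreted factor at the bottom. Asterisks mark an adjusted p under 0.05; 19 members are called lower in the column for shCDK12 against shNT and 22 higher in the column for OHT in the libraries labelled shCDK12.

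A list of 36 other p53 target genes was tested in the same fits. OHT in shNT called 1 of 33 tested higher and 6 lower, with the largest fall in APAF1, the apoptosome scaffold (log2 fold change -1.77 ± 0.31, adjusted p = 0.00178), and the rise in TSKU (0.63 ± 0.14, adjusted p = 0.00669). In the libraries labelled shCDK12 against shNT, 6 of 34 were higher and 20 lower, led by TRIM22, an interferon-inducible ligase (1.07 ± 0.24, adjusted p = 0.000447), and ORAI3, a calcium channel subunit (-2.51 ± 0.30, adjusted p = 7.97e-08). TRIM22 was below the filter on low counts in the fit of shNT+OHT and shNT. It passed only in fits that held libraries labelled shCDK12 or shCDK12+OHT. OHT in the libraries labelled shCDK12 had 21 of 34 higher and 3 lower, led by ABHD4 (1.59 ± 0.17, adjusted p = 6.92e-07) and PRDM1, a transcriptional repressor (-0.72 ± 0.090, adjusted p = 4.49e-06). Against shNT+OHT, the libraries labelled shCDK12+OHT had 12 higher and 6 lower, with TRIM22 (2.95 ± 0.29, adjusted p = 3.18e-05) and CES2, a carboxylesterase (-1.20 ± 0.17, adjusted p = 0.000327), at the ends. The interaction called 19 one way and 2 the other, with ORAI3 (2.41 ± 0.44, adjusted p = 0.000174) and TSKU (-1.08 ± 0.16, adjusted p = 1.99e-05) at the ends. The share of this list called was 21.2%, 76.5%, 70.6%, 52.9% and 61.8% in these comparisons in turn, beside 17.3%, 62.0%, 48.9%, 45.4% and 45.2% of all tested genes. The list's median log2 fold change was -0.29, -0.50, 0.36, 0.21 and 0.72, beside -0.029, -0.027, 0.048, 0.048 and 0.10 over all tested genes.

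A list of 34 regulators of p53 was split between higher and lower. OHT in shNT called 3 of 30 tested higher and 2 lower, the farthest being PRMT5, an arginine methyltransferase (0.80 ± 0.17, adjusted p = 0.00522), and ATM, the kinase of double-strand break signalling (-0.76 ± 0.20, adjusted p = 0.0196). The ATM call was lost without any one shNT library or shNT+OHT replicate 3 (0.0615 to 0.105) and with the length trend removed (0.072), and its value ran from -0.96 without shNT+OHT replicate 2 to -0.56 without replicate 3. The PRMT5 call was lost at equal depth (0.059). PRMT5, DAXX and NPM1, the 3 higher with OHT in shNT, were also called higher in the libraries labelled shCDK12 against shNT. With OHT in the libraries labelled shCDK12 they were called lower. ATM and PPP1R13L, the 2 lower with OHT in shNT, were also called lower in the libraries labelled shCDK12 against shNT. With OHT in the libraries labelled shCDK12, PPP1R13L was called higher and ATM was not called. In the libraries labelled shCDK12 against shNT 10 of 32 were higher and 11 lower, with CHEK2, the checkpoint kinase downstream of ATM (1.87 ± 0.27, adjusted p = 1.91e-06), and PPP1R13L, the p53 inhibitor iASPP (-1.99 ± 0.14, adjusted p = 1.31e-11), at the ends. CHEK2 had only 4 to 38 counts in shNT and 14 to 49 in shNT+OHT, beside 114 to 202 in the libraries labelled shCDK12. It passed the filter only in fits that held libraries labelled shCDK12 or shCDK12+OHT. Its change against shNT and its interaction thus rest on few counts in shNT. OHT in the libraries labelled shCDK12 gave 6 higher and 6 lower, with the same genes at the ends in the other direction, PPP1R13L (1.05 ± 0.13, adjusted p = 5.43e-06) and CHEK2 (-0.92 ± 0.16, adjusted p = 0.000101). Against shNT+OHT, 3 were higher, most of all TP73, a p53 homologue (1.43 ± 0.33, adjusted p = 0.00497), and 8 lower, most of all KAT8, an acetyltransferase (-1.35 ± 0.29, adjusted p = 0.00348). TP73 had only 3 to 15 counts in shNT+OHT, beside 45 to 107 in the libraries labelled shCDK12+OHT. Like CHEK2, it did not pass the filter in the fit of shNT+OHT and shNT. The interaction was called for 5 one way and 8 the other, led by PPP1R13L (1.78 ± 0.21, adjusted p = 1.38e-06) and CHEK2 (-1.85 ± 0.40, adjusted p = 0.000806). Of this list 16.7%, 65.6%, 37.5%, 34.4% and 40.6% were called in these comparisons in turn, and the medians were -0.028, 0.031, -0.084, -0.080 and -0.044. Beside the shares of all tested genes just given, those of this list were close or lower.

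The list of 36 genes around the sestrins held GATOR and mTORC1 components and FOXO factors. In the libraries labelled shCDK12 against shNT, 15 of 33 tested were higher and 8 lower, 69.7% of the list beside 62.0% of all tested genes, with a median of 0.28 beside -0.027. FOXO4, a FOXO factor, rose most (1.28 ± 0.16, adjusted p = 1.38e-07). OHT in shNT called 2 of 30 higher and 2 lower (13.3% beside 17.3%), with DDIT4, a stress-induced inhibitor of mTORC1 (1.11 ± 0.11, adjusted p = 2.03e-05), and RRAGC, a Rag GTPase (-0.59 ± 0.18, adjusted p = 0.0351), at the ends. The RRAGC call was lost without any one shNT library or shNT+OHT replicate 1 (0.0555 to 0.14), and its value ran from -0.76 without shNT+OHT replicate 3 to -0.38 without replicate 1. OHT in the libraries labelled shCDK12 gave 8 of 33 higher and 4 lower (36.4% beside 48.9%), with RRAGC (1.01 ± 0.094, adjusted p = 1.28e-07) and WDR24, a GATOR2 subunit (-0.69 ± 0.14, adjusted p = 0.000462), at the ends. WDR24 was not called at equal depth (-0.52, adjusted p = 0.479). Against shNT+OHT there were 13 higher and 6 lower (57.6% beside 45.4%), with RRAGD, another Rag GTPase (2.10 ± 0.36, adjusted p = 0.000924), and DDIT4 (-1.39 ± 0.12, adjusted p = 1.33e-05) at the ends. RRAGD was below the filter on low counts in the fit of shNT+OHT and shNT. It passed only in fits that held libraries labelled shCDK12 or shCDK12+OHT. The RRAGD value ran from 1.60 without shNT+OHT replicate 3 to 2.85 without replicate 1. The interaction was called for 5 one way and 6 the other (33.3% beside 45.2%), with RRAGD (1.72 ± 0.52, adjusted p = 0.0111) and MLST8, an mTOR subunit (-1.44 ± 0.21, adjusted p = 2.15e-05), at the ends. The RRAGD interaction was lost without shNT replicate 2 (1.11, adjusted p = 0.105) and was 2.51 without shNT+OHT replicate 1.

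Gene length moved with the log2 fold changes in some of these comparisons. Across the 33 members Pearson's r between the log2 fold change and the log of the gene span was -0.50 for OHT in shNT and 0.35 for shCDK12+OHT against shNT+OHT, beside -0.29 and 0.21 across all genes. It was 0.33 for the interaction, beside 0.21. For the libraries labelled shCDK12 against shNT it was -0.081, beside -0.053, and for OHT in the libraries labelled shCDK12 it was 0.082, beside 0.12. These are correlations across genes, which are not independent replicates, within the same libraries. With the length trend removed from each library, SESN3 and TP53INP1 kept their calls in all 5 comparisons.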

How the data were processed

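The authors deposited one table of raw read counts for 23434 human genes by Entrez identifier in 12 EU-seq libraries. Per the labels, a TruSeq Stranded Total RNA Gold kit was used, and the submitters' processing notes name STAR 2.7.5c, featureCounts 1.4.5-p1 and hg19. Whether counting used strand is not given in the sources used here. The spans of 13 of the 35 members, introns included, overlap another counted gene, among them MDM2 with the gene CPM and CCNG1 with NUDCD2. Reads from bases common to both genes cannot be told apart if strand was not used, and whether exons overlap was not tested. Symbols and promoters came from RefSeq GRCh38.p14, by gene identifier (23284 matched), so the printed coordinates are those of GRCh38.p14 and not of the counts.

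Counts were tested with edgeR 4.0.16 in R 4.3.3, using TMM normalization on the whole table, the quasi-likelihood test with group as the only term, a filter that kept genes whose normalized counts averaged over 32 in the fitted libraries, and Benjamini-Hochberg adjustment over all genes tested. Each pairwise fit used its 6 libraries and the interaction all 12. Scripts were tested on simulated data. The depth of 1251695 to 10447836 counts limits the precision of genes with few counts, most of all in shNT+OHT. Alternatives were DESeq2 1.42.0, upper-quartile scaling, no filter or filterByExpr, a single fit of all libraries, the replicate number as a block, thinning to equal depth (1251695 counts), a gene length trend removed per library, and leaving out each library.

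The members and lists were chosen with earlier results of these data known. Log2 fold changes are printed for members where called, levels for the others, values in every library for the sestrins, MDM2, CDKN1A, GDF15 and the 3 called members with the largest change in each comparison, and from each other list the called gene with the largest rise and fall. CDK12 is named as the check of the shRNA. Some genes that this rule would name are not reported here.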

Additional observations from a re-analysis of the deposited data

Results flagged for a closer look

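A difference in the OHT response between shRNA backgrounds was called for 16 members, by the interaction term of edgeR's quasi-likelihood test over all 12 libraries, with p-values adjusted over all genes tested. The value is the log2 fold change with OHT in the libraries labelled shCDK12 minus that in shNT, and CDK12 itself did not separate the libraries labelled shCDK12 from shNT. It was 3.64 for SESN3, 2.59 for TP53INP1, 1.66 for TP53I3, 1.59 for SESN1, 1.4 for RRM2B and 1.31 for FAS. It was 0.98 for XPC, 0.94 for AEN, 0.90 for TIGAR, 0.85 for CDKN1A, 0.79 for FDXR, 0.78 for CCNG1 and 0.71 for DDB2. The smallest were 0.68 for MDM2, 0.41 for BTG2 and 0.38 for POLH. Of these, 5 were not called in every other setting: POLH was lost in 5 of 7, BTG2 and CCNG1 in 2 each, and TP53I3 and DDB2 at equal depth. Leaving out single libraries lost the calls of POLH in 8, CCNG1 in 7 and BTG2 in 3 of 12 fits. OHT in shNT was called for 7 of the 16, each lower, and for the other 9 that response was not called in the fit of 6 libraries. The background was 25.6% of all tested genes called in this direction.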

How the results depend on the processing

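Fitting all 12 libraries together gave 3256 genes and 14 members called for shNT+OHT against shNT, where the fit of 6 libraries gave 1782 and 7. Thinning to equal depth left 819 genes for shNT+OHT against shNT, 2948 for shCDK12 against shNT, 1027 genes and 9 members for shCDK12+OHT against shCDK12, 1853 genes and 13 members for shCDK12+OHT against shNT+OHT, and 1804 genes for the interaction, fewer reads being the construction of that setting. Signs turned for CDK12 in shCDK12 against shNT with upper-quartile scaling (0.015) and with the length trend removed (0.022). At equal depth they turned in shCDK12+OHT against shCDK12 for MDM4 (0.051) and PLK3 (-0.0089). The cause was not tested. Without each library in turn, shNT+OHT against shNT gave 670 to 2523 genes and 2 to 14 members, shCDK12 against shNT 6425 to 7132 and 22 to 26, shCDK12+OHT against shCDK12 5000 to 6500 and 20 to 25, shCDK12+OHT against shNT+OHT 3520 to 6238 and 13 to 24, and the interaction 4609 to 5829 and 13 to 20. Upper-quartile scaling moved the median of all genes in the interaction from 0.10 to -0.017. The labels give the replicate numbers no shared origin. Deviations from the group means correlated at -0.092 to 0.32 over 18 pairs with the same number, 3 of them over 0.1. They correlated at -0.36 to 0.10 over 36 other pairs, 0 of them over 0.1. Whether some libraries with the same number shared an origin was not tested. With the replicate number as a block, 1734, 7437, 6236, 4846 and 5385 genes and 7, 24, 23, 23 and 18 members were called in the 5 comparisons in this order. The block lost POLH in shCDK12+OHT against shCDK12 (0.0521) and against shNT+OHT (0.0879) and added the interactions of PHLDA3 (0.0397) and MDM4 (0.0496), values in parentheses being adjusted p. Over the settings other than leaving out a library, 4 of 7, 21 of 24, 10 of 24, 13 of 24 and 11 of 16 member calls held in every setting in which the gene was tested, and 2, 21, 17, 12 and 13 held without any single library.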
